A study of Bos taurus with 2 samples.

Results

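The secretory genes of the epididymis and the male accessory glands were followed in RNA of bull spermatozoa. Members were taken by the gene name in the scanner tables. They were names that start with SCGB, CRISP, SPINK, LCN or WFDC, or with BSP or CST followed by a digit, and the single names CLU, PTGDS, SPADH1, SPADH2, RNASE1, PEBP1, PEBP4, ELSPBP1, SPP1 and NPC2. The name CRES was also searched and no probe carries it. CST8 is the current name of that gene, and it is a member through the CST rule. The members were 44 of 32429 gene names and 79 of 51282 probes other than controls, with 85 of 61657 spots.

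RNA came from spermatozoa of HF crossbred breeding bulls and was hybridised to 2 bovine oligonucleotide arrays, 1 for bulls of high fertility and 1 for bulls of low fertility. Total RNA was primed with oligo-dT and labelled with Cy3 on both. The labels name bulls in the plural, without the number of animals behind an array or their age. With 1 array per group there is no replicate, so no test was made, and each difference describes these 2 arrays. In such bulk RNA, fewer cells of a type and less RNA per cell cannot be told apart.

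Spermatozoa leave the testis immotile and mature in the epididymis, where the duct epithelium secretes proteins that coat, remodel and protect them. At ejaculation the seminal vesicles, prostate and bulbourethral glands add a second set of proteins. Both sets bind to the sperm surface as proteins, while their mRNAs are known mainly from the glands that make them. Mature sperm are transcriptionally quiet and carry RNA retained from the testis.

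Of the 44 secretory genes, 13 (29.5%) were well above background on both arrays, against 36.4% of all genes. A further 3 were so on the high-fertile array only, 2 on the low-fertile array only and 26 on neither, here called at background. The share of probes on neither array was 67.1% for the secretory genes and 64.4% over the whole array, so most were not well above background in either sperm RNA, as on the array at large. The secretoglobin SCGB2A2 was 3.95-fold higher in high-fertile sperm RNA, at 1 probe with 1 spot. Its other probe, designed on the RefSeq transcript, was at background on both arrays. With that probe counted in, the SCGB2A2 difference fell below 2-fold, to 0.94 on the log2 scale. PEBP1, a phosphatidylethanolamine-binding protein, was 2.31-fold lower in high-fertile sperm RNA, and it was lower at each of its 4 probes. The remaining 11 measured genes lay within 1.52-fold.

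The probes behind these results are 60-base oligonucleotides. A stretch of each is printed 5′ to 3′ with its position on build HGSC Btau_3.1, which the file headers give. Whether they lie in coding or untranslated sequence was not analysed here. For PEBP1 the stretches are shown because its 4 probes differ in the size of the difference. The first 2 lines are the same 30 bases of the target on both overlapping probes. The capital letter marks the 1 base at which these probes differ in their 34-base overlap, T17G counted from the first base of the overlap. The probes lie on the minus strand at chr17:59996106-59996165, chr17:59996080-59996139, chr17:59995657-59995716 and chr17:59995587-59995646, in the order of the lines.
PEBP1 probe at target base 732: agatttagatttagggTgacttttctttcc
PEBP1 probe at target base 758: agatttagatttagggGgacttttctttcc
PEBP1 probe at target base 1181: tggaaaaagctccatagaagaaattgcttt
PEBP1 probe at target base 1251: gttgggtaagaggttatcagaatctgaaag

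For SCGB2A2 both probes are shown, because only 1 of them gave a signal. They lie on the plus strand at chr29:42392357-42392416 and chr29:42393311-42393370. The capitals mark a CA repeat of 13 bases in the bright probe and a run of 6 T in the dim one. The bright probe was designed on an expressed sequence tag, EE984466, and the dim one on the RefSeq transcript NM_001101297.
SCGB2A2 probe, bright on both arrays: cacagaggcagACACACACACACAttatga
SCGB2A2 probe, at background on both arrays: caagctgtctgtcTTTTTTgtcttttaatc

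A probe counted as measured where the scanner software called every spot of it well above background. The lowest such signal was 22.6 on the high-fertile array and 30.3 on the low-fertile one. By this measure 16 of the 79 secretory probes (20.3%) were measured on both arrays, 7 on the high-fertile array only, 3 on the low-fertile array only and 53 (67.1%) on neither. Over all 51280 probes left after outlier spots, 27.6% were measured on both arrays and 64.4% on neither. Of the genes, 29.5% of the members and 36.4% of all 31910 updated gene names were measured on both arrays. Under the laxer flag, a signal positive and significant against the background, 62.0% of the secretory probes passed on both arrays, against 62.5% of all probes.

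**Figure D1:**
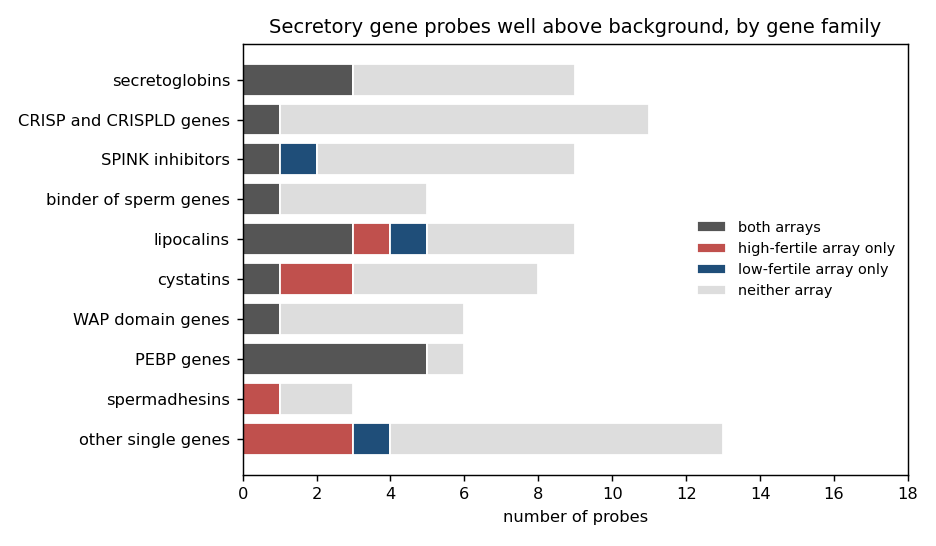
Number of probes per gene family (horizontal axis) that were well above background on both arrays, on the high-fertile array only, on the low-fertile array only or on neither. The PEBP genes have 5 of 6 probes on both arrays, the CRISP and CRISPLD genes 1 of 11, and the single genes at the bottom (CLU, RNASE1, ELSPBP1, NPC2, SPP1) none on both.

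The genes at background include secreted proteins for which the epididymis and the glands are best known. Among the proteins that bind the sperm surface these were CRISP1, CRISP3, the seminal vesicle proteins BSP3 and BSP5, the spermadhesin SPADH2, and ELSPBP1, an epididymal sperm-binding protein. CRISP2, which the testis makes for the acrosome and tail, and CRISPLD1 were also at background. Among protease inhibitors these were SPINK1, SPINK2, SPINK4, the cystatins CST3, CST7 and CST8, and WFDC3, WFDC8, WFDC11 and the member probe of WFDC1 among the WAP domain genes. A probe filed under another name but now listed as WFDC1 was measured on both arrays and is described with the other observations. Among carriers these were the lipocalins LCN6, LCN9, LCN15 and LCNL1, the secretoglobins SCGB1D and SCGB3A2, and NPC2, the cholesterol carrier of epididymal fluid. SPP1, or osteopontin, completes the 26. Their 37 probes had signals of 4.5 to 22.2 (median 7.6) on the high-fertile array and 6.1 to 26.3 (median 10.7) on the low-fertile array. On both arrays 10 of these probes held surrogate values, which the scanner software substitutes where a signal is not significant against the background. CST3 is counted here although 1 of the 2 spots of its probe was well above background on the high-fertile array. Under the laxer flag 17 of the 37 were positive and significant against the background on both arrays, so the signals of those 17 lay above the background without being well above it. No difference is given for these 37 probes, apart from those of CST7, LCN6 and LCN9 where the filter on dim probes was removed.

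Signals are given below in the linear units of the scanner. The high-fertile array was the dimmer one, with a 75th percentile of measured probes of 148.6, against 186.3 on the low-fertile array. Each log2 difference, high-fertile minus low-fertile, was therefore taken after dividing by that percentile. A gene was called at an absolute difference of at least 2-fold. Over all measured genes the log2 difference had an SD of 0.46. The spread between spots and between probes is technical. It holds no variation between arrays or between bulls, so it is no yardstick for a difference between the groups. The 2 spots of one probe differed between themselves with an SD of 0.28 (3038 probes), probes of one gene with a pooled SD of 0.42 (1851 genes), and the median error that the scanner software propagates to a difference was 0.26, all on the log2 scale.

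**Figure D2:**
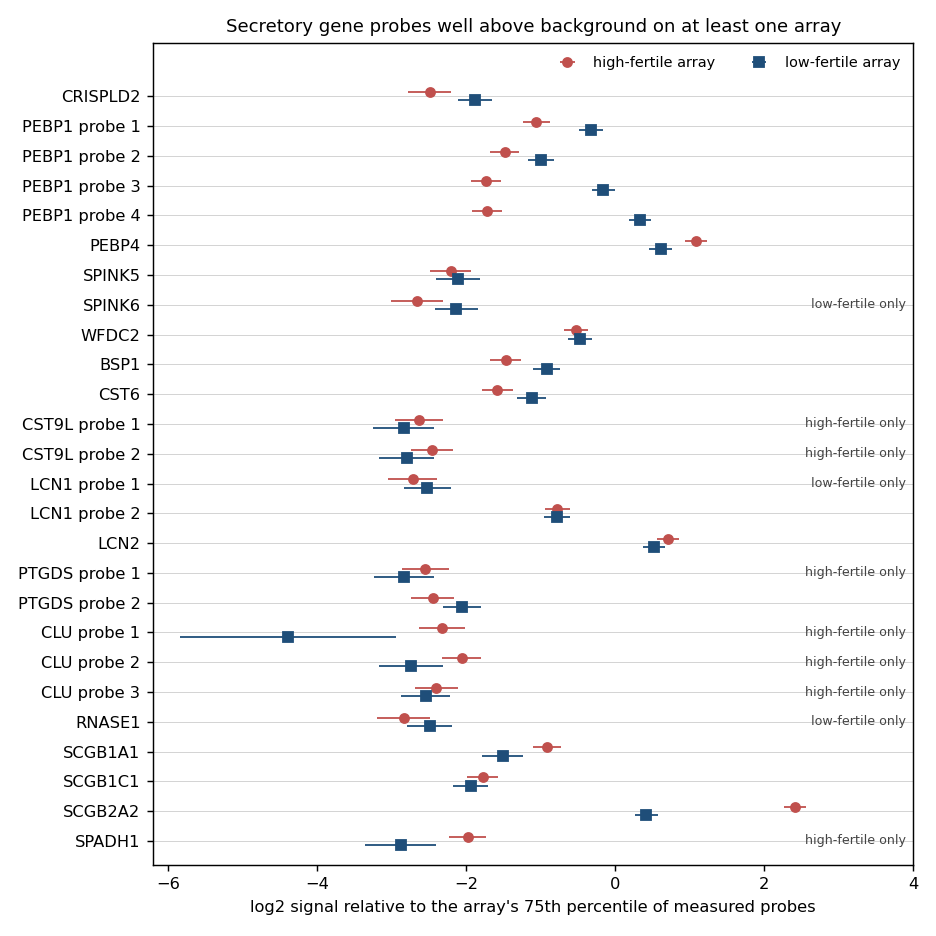
Log2 signal of each secretory probe that was well above background on at least 1 array, relative to the 75th percentile of measured probes on that array; bars are the scanner software's error, and the text at the right marks probes measured on a single array. Probes of a gene are numbered by their place in its transcript. The high-fertile point lies left of the low-fertile point at all 4 PEBP1 probes and far to the right of it at SCGB2A2.

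Of the 13 measured secretory genes, 7 had a negative and 6 a positive difference, with a median of -0.06. Over all 11619 measured genes the median was 0.00 and 50.1% were negative. SCGB2A2 was the 1 member at least 2-fold higher in high-fertile sperm RNA, where 1.88% of all measured genes were. Members keep the name in the files, while all genes carry updated names. Under updated names WFDC1 was also at least 2-fold higher, at 1.66, through a probe outside the member rule. PEBP1 was the 1 member at least 2-fold lower, where 2.44% of all measured genes were.

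**Figure D3:**
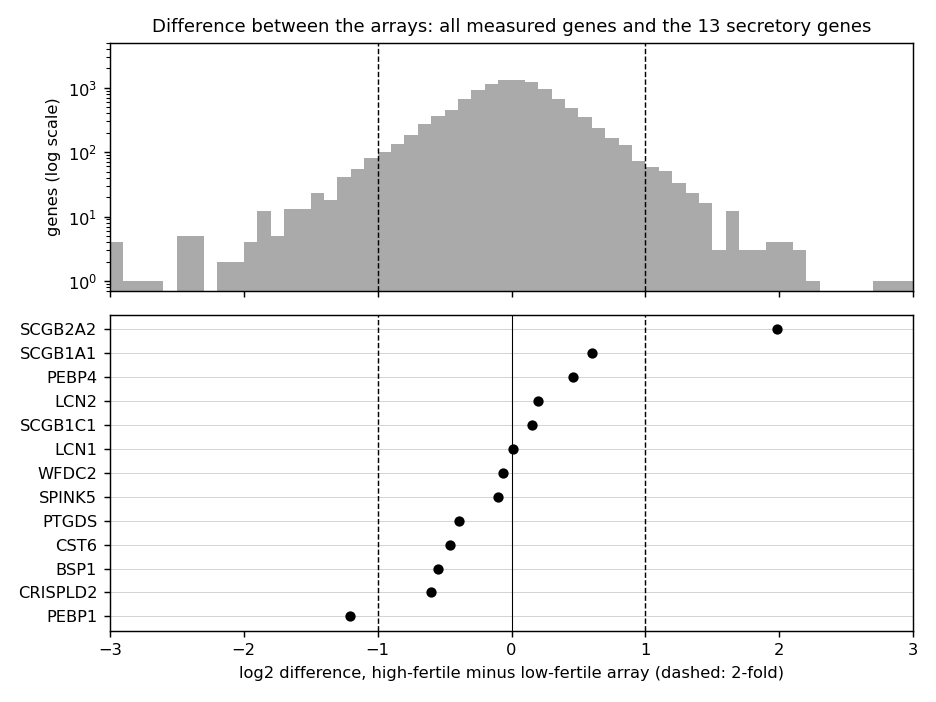
Top, number of genes per bin of 0.1 in the log2 difference, high-fertile minus low-fertile, for all 11619 measured genes on a log scale, with values beyond the axis placed in the end bins. Bottom, the same difference for the 13 measured secretory genes, of which SCGB2A2 at 1.98 and PEBP1 at -1.21 lie beyond the dashed lines at 2-fold.

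The PEBP proteins bind phospholipids and are found on sperm and in epididymal fluid of several mammals. At target base 732 its signal was 71.4 ± 8.96 on the high-fertile array and 148.9 ± 16.7 on the low-fertile array (scanner error, as for all errors of a signal). At base 758 it was 53.4 ± 7.22 on the high-fertile array and 93.5 ± 11.4 on the low-fertile one. These probes overlap, so they are not independent readings of the transcript. At base 1181 the signal was 44.8 ± 6.34 on the high-fertile array and 166.5 ± 17.8 on the low-fertile one. At base 1251 it was 45.0 ± 6.35 on the high-fertile array and 234.3 ± 24.2 on the low-fertile one. All 4 probes were thus dimmer in high-fertile sperm RNA.

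The log2 differences of the 4 PEBP1 probes were -0.73, -0.48, -1.57 and -2.05 from the first to the last target position, with scanner errors of 0.24, 0.26, 0.26 and 0.25. Their mean was -1.21 with an SD of 0.73 between probes, wider than the pooled SD of 0.42. The overlapping pair, which covers bases 732 to 817, averaged -0.61, or 1.52-fold lower. The pair that covers bases 1181 to 1310 averaged -1.81, or 3.51-fold lower. The 8 spots around each PEBP1 spot had median differences of -0.15, -0.09, 0.00 and 0.20 in the same order. The spots around them therefore did not share the shift.

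Among the 143 genes with at least 4 probes measured on both arrays, PEBP1 had the lowest mean difference and was the only one at least 2-fold lower (0.699%). That share is PEBP1 itself and the comparison was made to place it, so it gives no background. The PEBP1 mean also counts the 2 overlapping probes separately. All probes were lower in 36 of these genes (25.2%). The next lowest were the ribosomal protein gene RPS4X at -0.94 (SD 0.36 over 5 probes) and SET at -0.94 (SD 0.28 over 4 probes). The call for PEBP1 ended with normexp background correction, which gave -0.71, and with the brightest probe alone, which gave -0.73. Brightness was the mean scaled log2 signal of both arrays, by which the probes at bases 732 and 1251 were nearly equal. The probe at base 732 was taken, and the one at base 1251 stood at -2.05. No PEBP1 probe passed the stricter filter on dim probes.

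**Figure D4:**
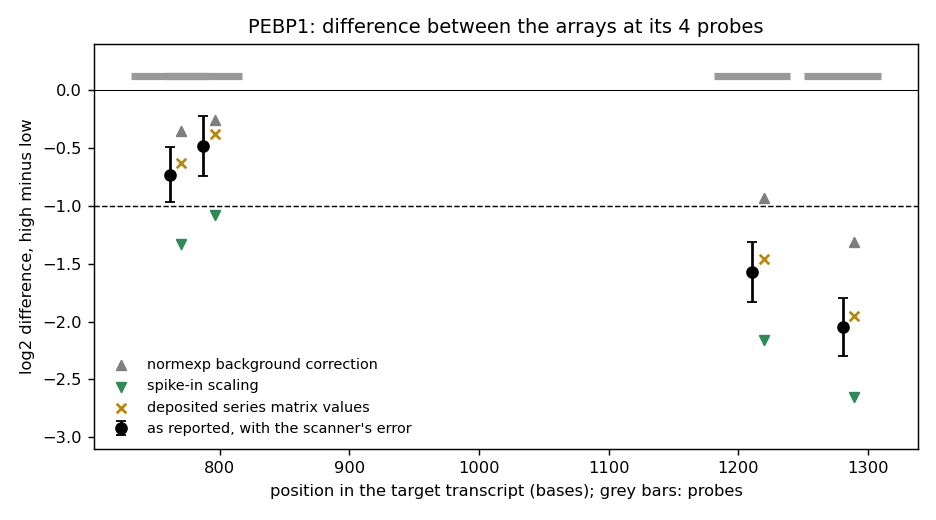
Log2 difference, high-fertile minus low-fertile, of the 4 PEBP1 probes against their position in the target transcript in bases; grey bars are the probes, error bars the scanner software's error, and the dashed line is 2-fold. Under normexp, spike-in scaling and the deposited matrix values the 2 downstream probes also differ more than the 2 upstream probes.

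PEBP4, a second gene of the family, lay within 2-fold. Its probe at chr8:73119598-73119657 had a signal of 313.4 ± 31.9 on the high-fertile array and 285.4 ± 29.6 on the low-fertile one, a difference of 0.46. Its other probe was well above background on neither array, with 13.9 on the high-fertile array and 31.8 on the low-fertile one. With that dim probe counted in, the PEBP4 difference was -0.20, so its sign depends on the filter.

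Secretoglobins are small secreted proteins of mucosal and glandular epithelia that bind hydrophobic ligands. SCGB2A2 is known in humans as mammaglobin, a product of breast epithelium. Its bright probe read 786.9 ± 78.8 on the high-fertile array and 249.8 ± 25.8 on the low-fertile array. The log2 difference was 1.98, with a scanner error of 0.21, and the spots around it had a median of -0.12. The second probe, on the RefSeq transcript, read 4.7 on the high-fertile array and 6.4 on the low-fertile one, both at background and both surrogate values. The SCGB2A2 call thus rests on a single spot. The mean over both probes, with these surrogates counted in, was 0.94, below 2-fold.

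SCGB1A1, the uteroglobin of airway and uterine epithelium, read 79.2 ± 10.3 on the high-fertile array and 65.6 ± 12.7 on the low-fertile one at chr29:42496977-42497036. Its difference was 0.60, with a scanner error of 0.34, and the spots around it had a median of -0.40. Its other probe was at background on both arrays. SCGB1C1 read 43.1 on the high-fertile array and 48.6 on the low-fertile one, a difference of 0.15. The SCGB1C1 probe shares a run of at least 40 bases with a probe named XM_002683728 and at least 16 bases with probes of 2 other genes in all, so which of these transcripts it read is uncertain. No other secretory probe measured on at least 1 array shared 16 bases with the probe of another gene.

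Lipocalins carry small lipophilic molecules, and several of them are made in the epididymis. LCN2, the siderophore-binding lipocalin of neutrophils and epithelia, read 243.6 on the high-fertile array and 266.3 on the low-fertile one, a difference of 0.20 (chr11:102349007-102349066). LCN1, the tear lipocalin, read 86.6 on the high-fertile array and 108.2 on the low-fertile one at its measured probe, a difference of 0.01. PTGDS, the prostaglandin D synthase of seminal plasma, read 27.2 on the high-fertile array and 44.6 on the low-fertile one, a difference of -0.39 with a scanner error of 0.39. None of these 3 differences exceeded the pooled SD between probes, which is a technical spread. A further LCN2 probe outside the member rule was measured on both arrays, at 0.58. That probe is described with the other observations. The second PTGDS probe was measured on the high-fertile array only, with 25.4 there and 26.1 on the low-fertile array. The second LCN1 probe was measured on the low-fertile array only, with 22.5 on the high-fertile array and 32.5 on the low-fertile one.

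Protease inhibitors hold acrosomal and seminal proteases in check. CST6, the cystatin E/M that inhibits cysteine proteases, read 49.6 ± 7.31 on the high-fertile array and 85.4 ± 11.7 on the low-fertile one at chr29:46000112-46000171. Its difference was -0.46, with a scanner error of 0.29. SPINK5, a multidomain inhibitor of serine proteases known from skin, read 32.0 on the high-fertile array and 43.1 on the low-fertile one at 1 of its 4 probes, a difference of -0.10. The spots around that SPINK5 spot had a median of 0.95. WFDC2, a WAP domain protein first described in the human epididymis as HE4, read 103.2 on the high-fertile array and 134.5 on the low-fertile one, a difference of -0.06. Among these 3 inhibitors CST6 lay furthest from 0, by less than 2-fold.

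SPINK6, an inhibitor of kallikreins, was measured on the low-fertile array only. It read 23.5 on the high-fertile array and 42.6 on the low-fertile one, 1.44-fold lower in high-fertile sperm RNA. The log2 difference was -0.53, with a scanner error of 0.45. For a gene on a single array the dim side was taken as no lower than the lowest signal called well above background there. Where the dim signal falls below that level, the fold is a lower bound. The dim SPINK6 signal lay above that level, 22.6, so its fold is the ratio of the scaled readings. CST9L, a cystatin-like gene of the testis in other mammals whose accession is now listed as LOC505033, was measured on the high-fertile array only. Its probes read 26.9 and 24.0 on the high-fertile array, against 26.7 and 25.9 on the low-fertile array. After scaling, the first of these gave a bound of at least 1.11-fold higher and the second gave none.

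Binder of sperm proteins come from the seminal vesicles and bind choline phospholipids of the sperm membrane, and BSP1 is the most abundant of them in bull seminal plasma. BSP1 was measured at 1 of its 3 probes, which lies on an unplaced scaffold of that build from base 12638 to 12697. It read 53.7 ± 7.58 on the high-fertile array and 98.5 ± 12.4 on the low-fertile one, a difference of -0.55 with a scanner error of 0.27. The next probe along the transcript read 4.6, a surrogate value, on the high-fertile array and 16.5 on the low-fertile one, as the mean of 2 spots. The remaining one read 13.8 on the high-fertile array and 27.7 on the low-fertile one. Both of these were at background, with log2 differences of -1.49 and -0.68 in that order. With these dim probes counted in, the BSP1 difference was -0.91. Without the filter on dim probes the median over all genes was -0.12. Signals at background are not well measured, so no direction is read from these probes. The first and second probes are shown because they overlap by a few bases in the transcript and differed in detection. The capitals mark the 8 bases that they share.
BSP1 probe, measured on both arrays: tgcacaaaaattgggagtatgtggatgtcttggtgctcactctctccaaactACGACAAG
BSP1 probe, at background on both arrays: ACGACAAGgacagagcttggaagtattgct

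Spermadhesins are small proteins of seminal plasma that bind sperm and sugars. SPADH1, the acidic seminal fluid protein, was measured on the high-fertile array only, at 1 of its 2 probes (chr26:43126835-43126894). It read 37.7 ± 6.50 on the high-fertile array and 25.2 ± 8.29 on the low-fertile one, at least 1.56-fold higher in high-fertile sperm RNA. The other probe shares 40 bases with it. It read 4.8 on the high-fertile array and 6.5 on the low-fertile one, at background and surrogate values on both. Its genome interval, chr26:43126855-43128425, is longer than the probe. The stretches below carry in capitals 20 of the shared bases.
SPADH1 probe, measured on the high-fertile array: cctgagcaccCAGCTTCTTTCTATGAAGTG
SPADH1 probe, at background on both arrays: CAGCTTCTTTCTATGAAGTGttatactttc

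CRISPLD2, a secreted relative of the CRISP proteins, was the only one of its family with a measured probe, at 1 of 4 (chr18:10276465-10276524). It read 26.5 ± 5.34 on the high-fertile array and 50.6 ± 8.09 on the low-fertile one. Its difference was -0.60, or 1.52-fold lower, with a scanner error of 0.37. The other 3 probes were at background on both arrays. One of them read 23.5 on the high-fertile array and 17.3 on the low-fertile one, which goes the other way, at 0.77. The other 2 stood at -1.28 and 0.07, each with a surrogate value on 1 array. With these dim probes counted in, the CRISPLD2 difference was -0.26. The CRISPLD2 signal on the high-fertile array was close to the lowest one called well above background there, 22.6.

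Clusterin, from CLU, is a secreted chaperone abundant in epididymal and seminal fluid. Of its 4 probes, 3 were measured on the high-fertile array and none on the low-fertile array. At target base 236 the signal was 29.8 ± 6.39 on the high-fertile array and 8.9 ± 8.91 on the low-fertile one, a bound of at least 1.23-fold. The 8.9 is a surrogate value, not significant against the background, so the size of the gap at this probe is not a measured one. At base 1543 it was 35.7 ± 6.56 on the high-fertile array and 27.8 ± 8.35 on the low-fertile one, at least 1.48-fold. At base 1577 it was 28.2 ± 5.69 on the high-fertile array and 32.0 ± 7.29 on the low-fertile one, which after scaling is 1.1-fold higher. The 32.0 lay above 30.3, the lowest signal called well above background there, so this fold is the ratio of the scaled readings. The last 2 probes overlap by 26 bases with 1 mismatch, G10A from the first base of the overlap. Detection of CLU thus differed between the arrays at signals near the background, and each bound or ratio was below 2-fold. The first probe is shown because the arrays lie furthest apart there, at chr8:11303229-11303288 on the minus strand.
CLU probe at target base 236: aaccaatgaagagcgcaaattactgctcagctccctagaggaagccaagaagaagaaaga

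The name RNASE1, a secreted ribonuclease of the pancreatic type, covers 2 transcripts in the files, NM_001014386 and NM_181810, which are now listed as LOC282340 and LOC280930. Of the 4 probes, 1 for NM_001014386 was measured on the low-fertile array only. It read 20.7 on the high-fertile array and 33.2 on the low-fertile one, at least 1.17-fold lower in high-fertile sperm RNA. Its log2 difference was -0.35, with a scanner error of 0.47. The other probe for that transcript was at background on both arrays and goes the other way. That probe read 14.6 on the high-fertile array and 7.6, a surrogate value, on the low-fertile one. Neither probe for NM_181810 was measured.

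Over all genes measured on a single array, 7.26% of those on the high-fertile array and 17.8% of those on the low-fertile array had a bound of at least 2-fold. Of the 5 secretory genes on a single array, 0 did.

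**Figure D5:**
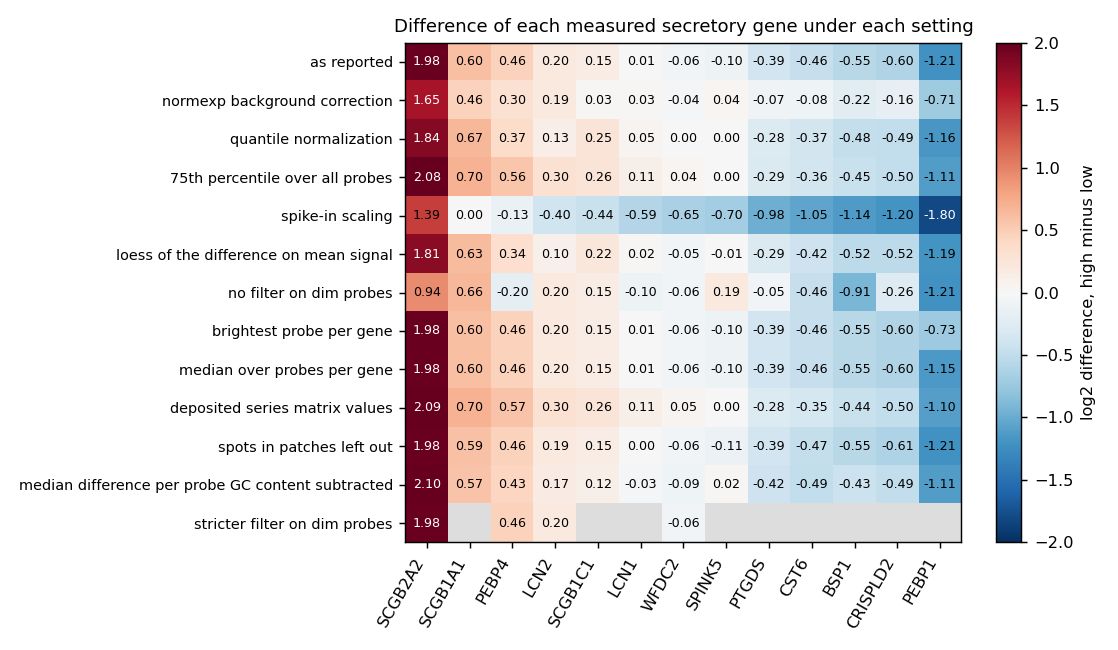
Log2 difference, high-fertile minus low-fertile, of the 13 measured secretory genes (columns) as reported and under each of 12 other settings (rows); grey cells mark genes with no measured probe. PEBP1 is negative and SCGB2A2 positive in every setting that gives a value, while spike-in scaling lowers all genes together.

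The counts of secretory genes beyond 2-fold changed under 1 of the scalings tried, that on the spike-in probes, and stayed at 1 higher and 1 lower with quantile normalization, loess, the matrix values and a 75th percentile taken over all probes. Before scaling, the 7 spike-in probes had a mean log2 difference of 0.27 (SD 0.09). Scaling on them placed the median of all measured genes at -0.60 and that of the secretory genes at -0.65. BSP1 at -1.14, CRISPLD2 at -1.20 and CST6 at -1.05 then passed 2-fold beside PEBP1 at -1.80, and SCGB2A2 stood at 1.39. Relative to the all-gene median of each setting, PEBP1 lay between -1.21 and -0.74 and SCGB2A2 between 1.06 and 2.09.

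Other genes of the same organs were read from lists of known products. Of 35 further epididymal secretory genes, 26 were on the array and 12 were measured on both arrays, with a median difference of 0.10. Of these 1 was at least 2-fold higher and 0 lower. It was the lysosomal mannosidase MAN2B2, which read 145.6 on the high-fertile array and 90.0 on the low-fertile one (difference 1.02, at 1 probe). GGT1, a glutathione-cleaving enzyme of the epithelial surface, and DCXR, a sperm-coating reductase, differed by 0.48 and 0.43. RNASE12, an epididymal member of the ribonuclease family, was measured on the low-fertile array only, with 22.3 on the high-fertile array and 85.3 on the low-fertile one. It was at least 3.01-fold lower in high-fertile sperm RNA, and the spots around it had a median of -0.06. RNASE12 was chosen for mention after its values were seen.

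Of 33 further accessory gland and seminal plasma genes, 24 were on the array and 12 measured on both arrays, with a median of -0.05 and none at 2-fold. PLA2G7, the phospholipase that degrades platelet-activating factor, read 66.9 on the high-fertile array and 147.6 on the low-fertile one (difference -0.81). The metalloprotease inhibitor TIMP2 differed by 0.59. Of 22 genes of epididymal transport and androgen response, 21 were on the array and 5 measured on both, with a median of 0.06 and none at 2-fold. The furthest from 0 was the proton pump subunit ATP6V1B1 at -0.49, with an SD of 0.85 over 4 probes.

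Markers of the cells a semen sample could hold were read beside these values. Of 24 sperm and spermatid markers, 11 were measured on both arrays, with a median of 0.09. Both calls among them were nuclear proteins, TNP2 at 1.22 and PRM1 at -1.10. Of 16 epithelial markers, 9 were measured on both arrays with a median of 0.21 and a range of -0.17 to 0.56. A further 1 was measured on the high-fertile array only, and 6, among them EPCAM and CDH1, on neither. The brightest of the 9 were 2 keratins. KRT19 read 175.7 on the high-fertile array and 174.4 on the low-fertile one, and KRT14 read 171.5 and 241.3. Of 20 leukocyte markers, 12 were measured on both, with a median of -0.07 and a range of -0.51 to 0.61. The 8 measured testis somatic markers and 3 erythroid markers had medians of -0.04 and 0.03. None of the epithelial, leukocyte, testis somatic or erythroid markers differed by 2-fold. The part of such cells in the secretory gene signals was not tested.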

How the data were processed

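Spermatozoal RNA of high-fertile and of low-fertile bulls was measured on 1 single-colour array each, grouped by the fertility entry of the labels. The deposited scanner tables hold spot intensity on a linear scale, made with Agilent Feature Extraction 11.5.1.1 per the file headers, which also name build HGSC Btau_3.1. The processed intensity was background-subtracted and detrended by that software per the file headers. Flags for detection, outliers and surrogate values are other columns of the deposited tables. The deposited series matrix holds log2 values that equal the log2 processed signal plus a constant per array, -5.12 for high-fertile and -5.55 for low-fertile, to within 0.01 at 98.6% of probes. Its column medians are -1.43 and -1.37, so scale and direction follow the signals and genes were not centred.

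Control and outlier spots were left out, spots averaged per probe on the log2 scale, the 75th percentile of probes well above background on both arrays subtracted, and probes averaged per gene. No member spot carried an outlier flag and no spot was saturated. Since 1 array per group was made, the number of arrays limits the precision. Genes outside the members were named through a RefSeq table of assembly ARS-UCD2.0 by accession (28110 probes), symbol (6484) or older symbol (153), and 16533 probes kept the file's name. Of the member probes 63 matched by accession and 14 by symbol.

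Named were all members measured on at least 1 array, and at most 3 measured genes per other list, with exceptions marked. The members and lists were chosen with earlier results of these data known. Alternatives were normexp (limma 3.58.1, R 4.3.3, offset 50), quantile normalization, loess, spike-in scaling, a 75th percentile taken over all probes, no and a stricter filter on dim probes (4 times the lowest signal called well above background), the brightest or median probe, the matrix values, leaving out spots whose 8 neighbours shift by at least 1 on the log2 scale, and a 1.5-fold threshold. Subtracting the median difference of probes of like GC content was added after seeing the data. The steps were tested on simulated data.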

Additional observations from a re-analysis of the deposited data

How the results depend on the processing

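No paired analysis was possible because each group has 1 array and no result comes from a test. The count of secretory genes at least 2-fold lower in high-fertile sperm RNA, 1 as reported, was 0 with normexp, with the brightest probe and with the stricter filter (4 genes measured, none of them PEBP1), 2 with no filter (LCN9 at -1.17 and PEBP1 at -1.21) and with a 1.5-fold threshold, and 4 with spike-in scaling. The count at least 2-fold higher, 1 as reported, was 2 with no filter (CST7 at 1.36 and LCN6 at 1.21) and with a 1.5-fold threshold. The CST7 value uses a surrogate on the low-fertile array. The median of -0.06 stood at -0.65 with spike-in scaling and at 0.33 with the stricter filter. The count of genes on a single array with a bound of at least 2-fold, 0 as reported, was 1 with spike-in scaling (SPINK6, 2.18-fold lower). That count has no value under the 2 filters and the 2 other probe summaries. Over all genes, the 218 higher and 284 lower (43.4% higher) became 72 and 48 (60%) with normexp, 295 and 203 (59.2%) with a 75th percentile taken over all probes, 33 and 1776 (1.82%) with spike-ins, 786 and 1752 (31%) with no filter, 125 and 46 (73.1%) with the stricter filter, and 297 and 201 (59.6%) with the matrix values. That percentile and the matrix values are nearly the same scaling, and each moved the all-gene median to 0.10. With GC content subtracted PEBP1 stood at -1.11 and SCGB2A2 at 2.10. The normexp offset shrinks differences of dim probes by construction, and no filter adds probes at background. The cause of the other shifts was not tested. PEBP1 was negative in 11 of 11 alternatives that measured it and at least 2-fold lower in 9. Signal over background limits the rest: 4 secretory probes passed the stricter filter on both arrays.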

Other observations

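A further 6 probes carry another name in the files while their accession is now listed under a symbol that fits the member rule. Of these, 3 were measured on both arrays and 3 on neither. WFDC1, a WAP domain protein known as a growth inhibitor of prostate stroma, has a member probe at background, with 8.9 on the high-fertile array and 12.7 on the low-fertile one. The probe filed under XM_002694744, whose current symbol is also WFDC1, read 155.3 on the high-fertile array and 62.0 on the low-fertile one. Its difference was 1.66, or 3.15-fold higher, with a scanner error of 0.27, and the spots around it had a median of -0.32. A second LCN2 probe, filed under XM_002691670, read 147.0 on the high-fertile array and 123.4 on the low-fertile one, a difference of 0.58. WFDC18, filed under EXPI, read 39.0 on the high-fertile array and 44.0 on the low-fertile one, a difference of 0.15. These probes were noticed after their values were seen.

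ACP3, the prostatic acid phosphatase, is listed as ACPP in the accessory gland list. Its difference was -0.03, with an SD of 0.10 over 7 measured probes of 8, and its mean signal was 35815 on the high-fertile array and 45927 on the low-fertile one. ACP3 was chosen for mention after its values were seen.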
